A study of Danio rerio with 10 samples.

Results

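A pair of reference groups of zebrafish embryos (Danio rerio) was set against each other: the phenotypically wild-type siblings from crosses of fn10a heterozygotes, and embryos from wild-type TL crosses. The groups were taken from the labels of the whole-embryo libraries, and hold 4 of the 10 samples in the series, 2 libraries a group. All were collected at 36 hours post fertilization (hpf), all carry the strain label TL, and each library was made from 30 embryos, so that every value is an average over a pool. The controls are labelled wildtype. The siblings are labelled fn10a+/- & +/+, so each sibling pool mixes heterozygous with wild-type embryos, and the labels do not say how many of each. The homozygous fn10a-/- mutants from the same crosses, also 2 libraries of 30 embryos at 36 hpf, entered the fit to help estimate the spread and are quoted where a value needs them. Each library is polyadenylated RNA, and in a pool of whole embryos fewer cells of a type and less RNA per cell cannot be told apart.

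The labels name the allele and no gene. That fn10a lies in eftud2 is taken from knowledge of the study, not from the labels. The Eftud2 protein is a GTP-binding component of the U5 particle in the spliceosome, the machine that removes introns from messenger RNA precursors. Siblings of a recessive mutant are a common reference because they share parents, handling and clutch with the mutants, whereas embryos of a separate wild-type cross do not. Stress responses are read in such comparisons from heat shock chaperones, which refold damaged proteins under the factor Hsf1, from genes of the unfolded protein response in the endoplasmic reticulum, and from immediate early genes such as fos, which cells switch on briefly after almost any stimulus.

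Depth and agreement differed with replicate number. Reads on the listed transcripts numbered 73755759 and 36527992 in the controls and 82752349 and 34620508 in the siblings, replicates 1 and 2 in that order. The listed transcripts took 54.2% and 58.7% of the authors' read total in the replicate 1 libraries and 33.7% and 31.6% in the replicate 2 libraries, so RPKM (reads per kilobase of transcript, scaled to the library's read total) is best compared within a replicate number. The model therefore had a term for it, and the per-library values below are always given as replicate 1, then replicate 2. Statements below that rank RPKM across replicate numbers set less comparable values side by side and are descriptions only. Whether the replicates are separate clutches is not stated in the labels, so the p-values cover only the variation among these libraries, part of which may be technical.

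Control replicate 2 stood apart from the other 5 whole-embryo libraries in its heat shock genes. The transcript of hsp70l, a stress-inducible Hsp70 chaperone, stood at 4.54 RPKM in control replicate 1 and at 1642 in control replicate 2. Siblings had 0.626 and 0.433, and mutants 1.88 and 2.76. After the difference between the replicate numbers that the siblings and mutants share was taken off, 35 genes were higher in control replicate 2 than in control replicate 1 by a log2 of over 3, against 2 genes for the same measure in siblings and 5 in mutants. In 30 of the 35 control replicate 2 lay above all 4 sibling and mutant libraries, in 22 control replicate 1 lay below all 4, and 17 had both, so the count reflects both control libraries. Lower by as much were 12 genes in controls, 12 in siblings and 11 in mutants. Results that rest on this library are given with and without it.

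Over the transcriptome the median difference was small, and the number of genes called depended on the model and the libraries used. Of 10147 genes whose RPKM averaged at least 1, 0 passed an adjusted p of 0.05 by edgeR's quasi-likelihood test with the replicate term, that is 0.0%, and the smallest adjusted p was 0.565. At an unadjusted p under 0.05 there were 520 genes lower in siblings (5.12% of those tested) and 358 higher (3.53%). The fitted log2 difference had a median size of 0.173. Another count model, DESeq2, called 98 genes with the same replicate term out of 9556 to which it gave an adjusted p. Of these, 65 were lower in siblings (0.68%) and 33 higher (0.345%). DESeq2's Wald test makes no allowance for the 2 residual degrees of freedom, whereas edgeR's F test does. Small DESeq2 p-values below are therefore to be read with caution. All 98 had the same direction in both replicate numbers, but a fit with a replicate term on the same libraries favours such genes, so this is no separate check. Limma on log2 RPKM called 0. Without control replicate 2, edgeR called 39 genes lower (0.384%) and 81 higher (0.798%), and 8.19% were lower and 9.37% higher at an unadjusted p under 0.05. Without control replicate 1 it called 260 lower (2.56%) and 143 higher (1.41%), with 1298 (12.8%) lower and 1213 (12%) higher at that unadjusted p. These shares are the background for the counts of list members below. A fit without a control library leaves 1 control, whose own spread cannot be measured, and 1 residual degree of freedom. The spread is then taken from the siblings and mutants, so an odd value in that 1 control can be called. Calls and p-values from such fits, here and below, describe that 1 library and are no test of the control group. In simulated counts the edgeR model recovered 59% of genes changed 2-fold and 98% of those changed 4-fold, with 7 false calls. Each simulated gene took its spread from the trend over all genes, and no library stood apart as control replicate 2 does. These shares therefore do not give the power in the real counts, where an uncalled gene may still differ by 4-fold or more. Since no gene passed the main test, differences below are given as values. Some carry the edgeR standard error (SE), whether the unadjusted edgeR p was under 0.05, or the DESeq2 adjusted p where that is under 0.05. RPKM values printed alone make no statement on p.

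Across the genes tested, the sibling minus control difference in replicate 1 had little relation to that in replicate 2. The directions were the same for 55.6% of genes, and the correlation across genes, which are not independent replicates, was 0.108 by Pearson and 0.135 by Spearman. The differences had an SD of 0.447 on the log2 scale in replicate 1 and 0.547 in replicate 2. Where the median of a gene list is given for each replicate number below, the same sign in both is a description and no test. With 2 pairs such agreement can arise by chance, and members of a list may vary together within a library. The replicate 2 pair also holds the control library that stood apart, and the lists were chosen with earlier results of these data known.

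Heat shock chaperones were lower in siblings, and most of the size came from control replicate 2. Of 30 tested members, 25 lay below 0, with a median log2 difference of -0.76 against 0.00 over all genes. The median was -0.12 in replicate 1 and -1.40 in replicate 2. At p under 0.05, 8 were lower and 0 higher, compared with 5.12% and 3.53% of all genes. DESeq2 called 2 members lower, hsp70l and hspb11, compared with 0.68% of all genes. Leaving out control replicate 1 gave 20 lower and 0 higher, against 12.8% and 12% of all genes. In 12 of the 30 (40.0%) control replicate 2 had the highest RPKM of the 6 libraries, compared with 5.16% of all genes by the same ranking. The list's share of all listed reads was 1.76% and 4.44% in controls, 1.85% and 0.941% in siblings, and 1.82% and 1.18% in mutants.

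Inducible members showed the contrast best. The cytosolic chaperone gene hsp90aa1.2 stood at 11.8 and 1281 RPKM in controls and at 16.0 and 6.61 in siblings, with 59.7 and 28.5 in mutants. For dnajb1b, an Hsp40 co-chaperone that hands substrates to Hsp70, the controls had 6.40 and 483 and the siblings 5.99 and 4.37. Among the replicate 1 libraries both genes were at similar levels in sibling and control, and only the replicate 2 pair differed by more than 10-fold. serpinh1b, the collagen chaperone of the endoplasmic reticulum, was at 38.7 and 594 in controls and 21.3 and 30.5 in siblings. The same held for bag3, a partner of Hsp70 in clearing damaged filaments (9.53 and 25.2 against 6.71 and 1.59), and for chordc1a, an Hsp90 co-chaperone (3.81 and 32.6 against 3.48 and 1.77). The unadjusted edgeR p was 0.0866 for hsp90aa1.2, 0.0686 for dnajb1b and 0.0669 for chordc1a, with 0.0276 for serpinh1b and 0.0402 for bag3. Constitutive members differed less: hspa8, the housekeeping Hsp70, had 1936 and 884 RPKM in controls and 2537 and 494 in siblings. hsp90ab1 had 1190.3 and 465 against 1141 and 376.

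Other chaperone records outside the list, picked after their values had been seen, followed the same library. hsp70, with 2 adjacent records on opposite strands of chromosome 3, stood at 8.48 and 2271 RPKM in controls and 4.47 and 0.864 in siblings. hspbp1, an Hsp70-binding protein, stood at 2.07 and 80.7 against 2.57 and 1.42. The unadjusted edgeR p was 0.0554 for hsp70 and 0.0871 for hspbp1, and DESeq2 called hsp70 (adjusted p = 0.0179) but not hspbp1. One small heat shock gene differed in both replicate numbers instead: hspb11 was at 12.3 and 7.71 in controls, 2.80 and 1.69 in siblings and 4.35 and 7.49 in mutants. Both its controls lay above both siblings, and the log2 difference was -2.22 in replicate 1 and -2.19 in replicate 2 (fitted -2.21, SE 0.389, DESeq2 adjusted p = 2.98e-05). Without control replicate 2 the list's median was -0.12, with 17 members below 0 and 13 above. At an unadjusted p under 0.05 there were then 7 lower and 6 higher, compared with 8.19% and 9.37% of all genes in that fit. Of the 4 members that passed edgeR's adjusted threshold in that fit, hspb11, hsp70l and serpinh1b were lower, with log2 differences of -2.52, -3.16 and -0.88. The fourth, ahsa1, an activator of Hsp90, was higher by 3.52, and stood at 0.425 and 8.02 RPKM in controls and 4.86 and 2.24 in siblings.

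**Figure D1:**
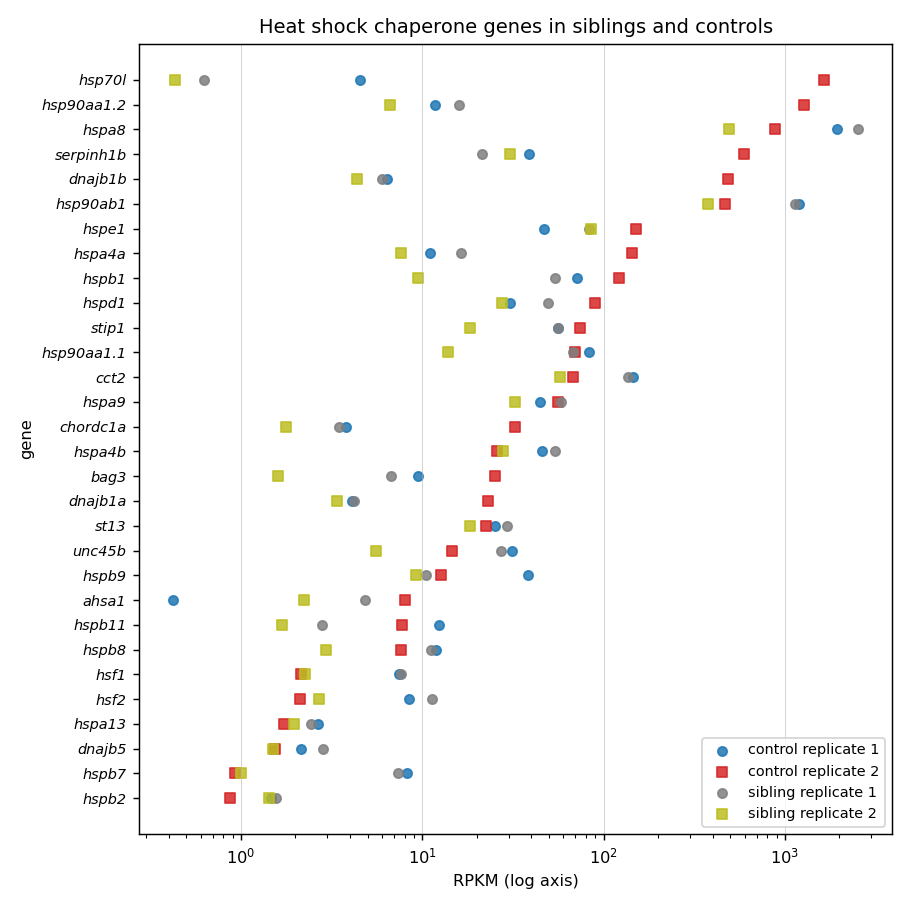
RPKM on a log axis of each tested heat shock chaperone gene in the 2 control and 2 sibling libraries, ordered by the level in control replicate 2; each point is 1 library. Control replicate 2 (red squares) lies far to the right for hsp70l, hsp90aa1.2, serpinh1b and dnajb1b, with all of the other 3 libraries well to its left, and for hspb11 both controls lie to the right of both siblings.

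Genes of the unfolded protein and integrated stress responses lay mostly below 0 in the fit, with a median below 0 in replicate 2 and near 0 in replicate 1. Of 40 tested, 15 (37.5%) were lower in siblings in both pairs, compared with 28.5% of all genes, and 3 were higher in both. Over the list, 28 lay below 0 with a median of -0.20, made of 0.02 in replicate 1 and -0.37 in replicate 2. There were 6 lower and 1 higher at p under 0.05, compared with 5.12% and 3.53% of all genes. In 16 of the 40 (40.0%) control replicate 2 had the highest RPKM of the 6 libraries, compared with 5.16% of all genes. Without it the median was 0.03, with 19 below 0, so the direction of the list turned, and 6 were lower and 2 higher, against 8.19% and 9.37% of all genes. Without control replicate 1, 20 were lower and 4 higher, against 12.8% and 12%.

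Among the members with a much larger difference in replicate 2 were genes of the endoplasmic reticulum. hspa5, the Hsp70 of the endoplasmic reticulum and sensor of unfolded proteins, stood at 76.3 and 268 RPKM in controls, 61.2 and 38.7 in siblings and 68.1 and 38.8 in mutants. herpud1, which takes part in the disposal of misfolded proteins from that compartment, stood at 9.79 and 14.8 in controls and 8.06 and 2.73 in siblings. dnajb9b, a co-chaperone of hspa5, had 2.39 and 8.31 against 3.005 and 1.22. The log2 differences of these 3 genes in replicate 1 were -0.41, -0.37 and 0.24, compared with -2.80, -2.45 and -2.77 in replicate 2.

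DESeq2 called 4 of the 40 tested members, ddit3, ppp1r15a, ddit4 and cebpb, all lower in siblings, compared with 0.68% of all genes. Each was lower in both pairs, but all 98 DESeq2 calls had 1 direction in both, so this is no separate check. cebpb is also given among the immediate early genes below, so for that gene the lists are not separate observations. ddit3, the transcription factor Chop, was at 6.79 and 7.41 RPKM in controls and 3.11 and 3.17 in siblings, so that both controls lay above both siblings (log2 -1.23, SE 0.246, DESeq2 adjusted p = 0.00513). ppp1r15a, which restores translation by helping to dephosphorylate eIF2alpha, was at 18.7 and 27.102 against 9.23 and 4.68 (log2 -1.90, SE 0.435). ddit4, an inhibitor of the growth kinase mTORC1, was at 43.0 and 10.99 against 20.2 and 6.36 (log2 -0.98, SE 0.183). In mutants ddit3 stood at 3.40 and 2.31 and ppp1r15a at 8.15 and 3.88, also below both controls. phgdh, which opens serine synthesis and is induced by amino acid shortage, pointed the other way at 24.1 and 19.3 in controls and 35.6 and 26.9 in siblings (log2 0.47, SE 0.115).

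Immediate early response genes were lower in siblings in both replicate numbers. Of 41 tested members, 36 lay below 0, with a median log2 of -0.48, made of -0.61 in replicate 1 and -0.34 in replicate 2. In 29 of the 41 the sibling was lower in both pairs, compared with 28.5% of all genes. At p under 0.05, 20 were lower and 2 higher, against the 5.12% and 3.53% of all genes given above. DESeq2 called 10 lower and 0 higher, compared with 0.68% and 0.345% of all genes. The list's share of listed reads was 0.266% and 0.234% in controls and 0.182% and 0.169% in siblings, with 0.214% and 0.194% in mutants.

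fos, the AP-1 subunit that is the standard readout of recent cell stimulation (minus strand of danRer7 chromosome 20, 46803310 to 46805421), had the largest difference of the list. It stood at 16.3 and 10.25 RPKM in controls and 1.89 and 0.451 in siblings, while mutants had 29.2 and 6.44. The siblings were below every library of both other groups. Its log2 difference was -3.90 (SE 0.449, edgeR adjusted p = 0.565, DESeq2 adjusted p = 1.50e-19), from -3.19 in replicate 1 and -4.49 in replicate 2. atf3, a stress-induced partner of AP-1, stood at 6.84 and 9.94 in controls and 1.96 and 0.719 in siblings (log2 -2.86, SE 0.477). jun stood at 26.7 and 24.7 against 15.8 and 10.6, and the mutants at 16.9 and 12.1 were near the siblings.

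The Jun-related genes junba and junbb behaved alike. junba was at 9.06 and 1.88 RPKM in controls and 1.22 and 0.681 in siblings, and junbb at 14.2 and 7.02 against 4.73 and 3.47. fosl1a, a Fos relative, was at 8.90 and 0.456 in controls and 0.763 and 0.168 in siblings, a difference of -3.61 on the log2 scale in replicate 1 and -1.41 in replicate 2. egr1, a zinc finger factor induced by growth factors and neuronal activity, was at 4.72 and 4.104 against 2.67 and 0.714. Both control libraries of junbb, egr1, atf3, jun and fos lay above both sibling libraries.

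Other members were also below the controls. ctgfa, a secreted matricellular protein and target of Yap, stood at 13.1 and 10.9 RPKM in controls and 4.93 and 4.55 in siblings (log2 -1.38, SE 0.161, DESeq2 adjusted p = 2.87e-08), and gadd45ba, a growth arrest gene, at 6.85 and 6.58 against 3.50 and 2.82. cebpb, a bZIP factor of inflammation and metabolism, stood at 18.7 and 28.3 against 11.7 and 12.8. klf2b, a Kruppel-like factor, was at 9.85 and 6.90 against 7.42 and 4.16. The 2 higher members were light and clock genes: per1b at 3.38 and 0.218 in controls and 5.31 and 1.01 in siblings, and per2 at 1.83 and 1.202 against 5.04 and 1.94. Without control replicate 2, 37 of 41 lay below 0 and 4 above, with a median of -0.53. The log2 differences were then -3.12 for fos, -2.04 for atf3, -3.08 for junba, -1.82 for junbb, -3.88 for fosl1a and -1.37 for ctgfa, and 1.54 for per2.

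**Figure D2:**
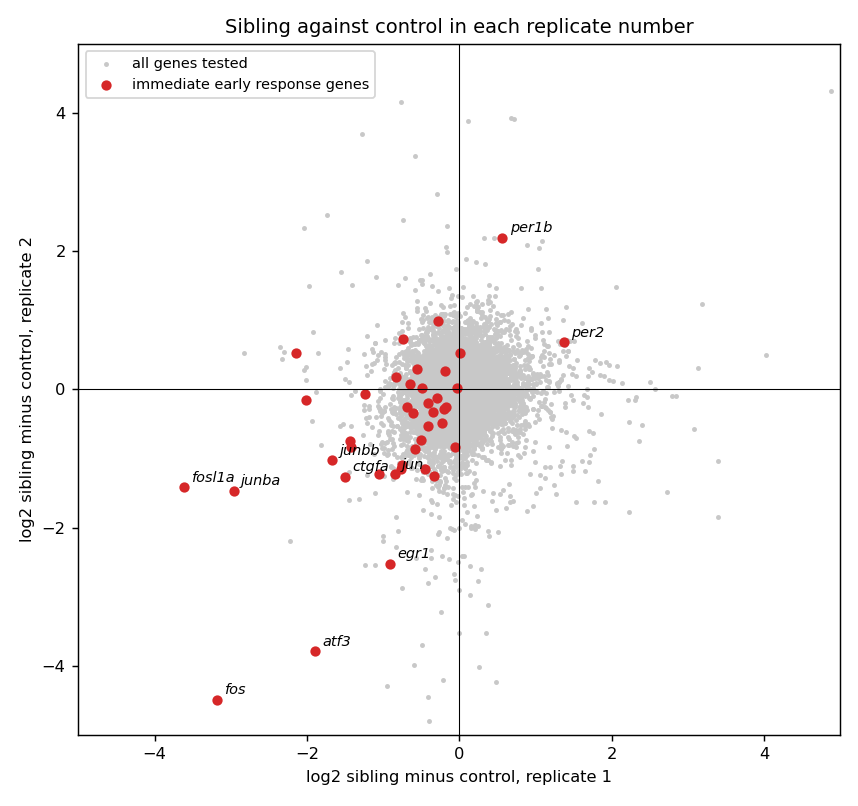
Log2 sibling minus control in replicate 1 (x axis) against replicate 2 (y axis), from counts scaled by edgeR, for all genes tested (grey) and for the immediate early response genes (red); genes beyond a log2 of 5 in either pair are outside the axes. Most red points, with fos and atf3 the farthest, lie in the lower left corner, where siblings are below controls in both pairs, while the grey cloud has no clear slope.

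The gene of the allele was close to the control level. The record of eftud2 is on the minus strand of chromosome 3 (danRer7, 16009001 to 16033616). It read 30.2 and 10.5 RPKM in controls and 28.1 and 9.91 in siblings, against 11.3 and 3.60 in mutants. Within a replicate number the siblings lay just below the controls and well above the mutants. The log2 difference between siblings and controls was -0.14 (SE 0.128, edgeR adjusted p = 0.732), -0.19 in replicate 1 and -0.09 in replicate 2. A lower level of eftud2 in the sibling pools was thus not detectable with 2 libraries a group.

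The neighbours of eftud2 did not stand out either. Of the 29 tested genes within 1 Mb, 1 had p under 0.05, and the median log2 difference was -0.05. Of the 72 from 1 to 5 Mb away, 3 had p under 0.05 with a median of 0.00. These counts are 3.45% and 4.17%, while over all genes 5.12% were lower and 3.53% higher at that p. The 66 genes from 5 to 10 Mb away had 7 (10.6%), and the 349 genes farther along chromosome 3 had 35 (10.03%). DESeq2 called 0 genes within 5 Mb, 1 from 5 to 10 Mb (junbb) and 6 beyond. That is 7 of the 516 tested on chromosome 3, compared with 98 of 9556 genes in all, and no excess on the chromosome is claimed. Chromosome 3 as a whole had 8.91% of its genes at p under 0.05, within the range of 4.97% to 13.7% over the 25 chromosomes.

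Among the DESeq2 calls farther away on chromosome 3, 2 pairs of adjacent records differed in the same direction within each pair. zgc:172253 (1803618 to 1809683) stood at 0.621 and 0.518 RPKM in controls and 1.47 and 1.18 in siblings, and mutants had 1.63 and 1.28. Next to it, zgc:153921 (1811098 to 1818449) stood at 0.358 and 0.660 in controls, 1.62 and 1.86 in siblings and 1.55 and 1.85 in mutants. In both, siblings and mutants, which come from the same crosses, lay above both controls. At another place, zgc:198419 (32242151 to 32243651), a ferritin heavy chain-like gene by its current name fthl28, and zgc:173593 (32248980 to 32250620) were lower in siblings. The latter stood at 13.7 and 6.36 in controls, 5.82 and 2.12 in siblings and 3.28 and 1.14 in mutants. A further call near that pair, rnf113a (32056018 to 32061565), went the other way, with a log2 difference of 0.79. Whether the adjacent records of a pair share sequence, and whether the counting divided reads between them, was not tested.

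Spliceosome genes were slightly higher in siblings. Of 61 tested members of the splicing list, 47 lay above 0 with a median log2 of 0.15, made of 0.11 in replicate 1 and 0.21 in replicate 2. At p under 0.05, 12 were higher and 4 lower, compared with 3.53% and 5.12% of all genes, so the lower share was near that of all genes. DESeq2 called 1 member higher, snrpd3, compared with 0.345% of all genes. Without control replicate 2 the median was 0.07, with 35 above 0 and 26 below, 11 higher and 3 lower at p under 0.05, and 0 past edgeR's adjusted threshold. Without control replicate 1 there were 20 higher and 5 lower, against 12% and 12.8% of all genes.

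The higher members include the following. snrpd3, a core Sm protein that wraps the spliceosomal RNAs, stood at 45.6 and 19.6 RPKM in controls, 81.1 and 36.2 in siblings and 229 and 139 in mutants. Its log2 difference from controls was 0.81 (SE 0.142, DESeq2 adjusted p = 0.00313). snrpd2, its partner in the Sm ring, stood at 79.9 and 49.2, 126 and 66.5, and 287 and 205 in the same order of groups. The U4/U6 proteins prpf4 and prpf31 stood at 2.29 and 5.18 and at 13.3 and 10.02 in controls, and at 4.69 and 7.23 and at 22.03 and 12.7 in siblings. In each of these genes, within a replicate number, the sibling lay between the control and the mutant. These genes were picked from the members higher in siblings, so their order does not stand for the whole list. The 4 lower members include u2af2a, which reads the polypyrimidine tract, stood at 27.3 and 16.0 in controls and 22.8 and 11.7 in siblings, and tra2b, a splicing regulator, at 26.1 and 20.0 against 21.5 and 9.85.

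A further group was drawn up after its values had been seen: 16 tested genes for synthesis of small nuclear RNAs and maturation of U6. snapc4, a subunit of the complex that starts small nuclear RNA transcription (minus strand of danRer7 chromosome 5, 52855050 to 52884641), had 1.70 and 0.600 RPKM in controls, 4.65 and 1.21 in siblings and 24.3 and 6.95 in mutants. Its log2 difference between siblings and controls was 1.18 (SE 0.151, DESeq2 adjusted p = 2.10e-06). brf2, the RNA polymerase III factor used at U6 promoters, stood at 1.304 and 0.458, 2.94 and 1.29, and 17.95 and 10.5. mettl16, the methyltransferase that modifies U6, stood at 2.75 and 0.763, 6.0005 and 2.58, and 24.1 and 12.2. For lsm7, part of the ring that binds the end of U6, the values were 32.1 and 38.8, 66.0 and 54.6, and 244 and 246.

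In these 4 genes every sibling library was higher than the control of its number and lower than the mutant of its number. DESeq2 called all 4 higher, compared with 0.345% of all genes. Of the 16, 5 were higher at p under 0.05, the other being lsm6, and 0 were lower, compared with 3.53% and 5.12% of all genes. In the fit 11 lay above 0, with a median of 0.26. Since the group was drawn up from these values, its counts are no test of the group. Leaving out control replicate 2 gave a median of 0.12, with 8 above 0 and 8 below. Leaving out control replicate 1 gave a median of 0.47, with 11 above 0 and 5 below. Genes of the same machinery such as tbp, which recognises promoters (9.40 and 6.002 in controls, 9.48 and 4.44 in siblings), and usb1, which trims U6 (1.02 and 0.861 against 1.43 and 1.21) did not reach an unadjusted p of 0.05. The siblings enter both this comparison and any with mutants, and the controls too, so the order of the groups is given as values only.

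**Figure D3:**
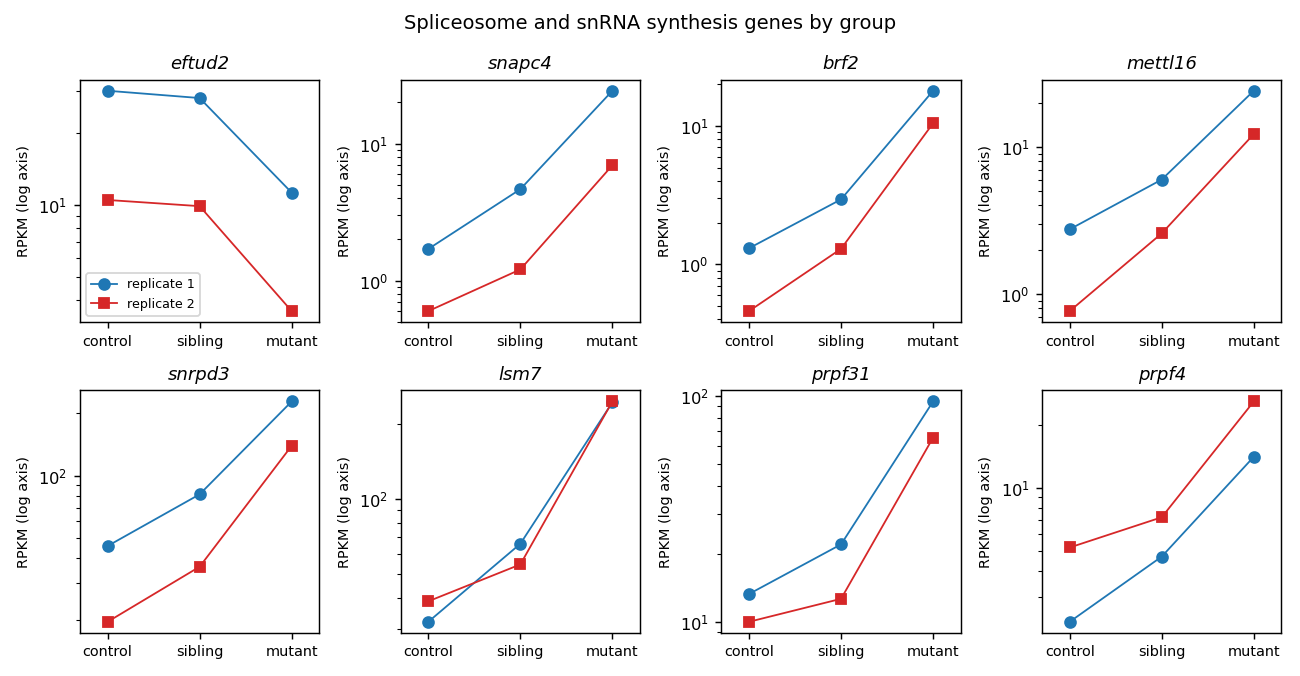
RPKM on log axes of eftud2 and of 7 spliceosome and small nuclear RNA genes in controls, siblings and mutants; each line joins the libraries of 1 replicate number. In snapc4, brf2, mettl16, snrpd3, lsm7, prpf31 and prpf4 both sibling points lie between the control and the mutant point of their line, while for eftud2 they lie just below the control and well above the mutant. The 7 genes are all among those higher in siblings and do not stand for their whole lists.

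Genes of the DNA damage response and apoptosis had a median near 0 between the reference groups. Of 26 tested members, 14 lay below 0 with a median of -0.05, and at p under 0.05, 3 were lower and 1 higher, compared with 5.12% and 3.53% of all genes, with 0 DESeq2 calls. mdm2, a ubiquitin ligase, stood at 18.02 and 8.18 RPKM in controls, 12.6 and 7.19 in siblings and 72.4 and 38.8 in mutants. The cyclin gene ccng1 stood at 113 and 181 in controls, 126 and 111 in siblings and 377 and 407 in mutants. For both genes the siblings were within a 2-fold range of the control of their number, and the mutants were above every library of both. gadd45aa, a damage-induced growth arrest gene, was the higher member, with 0.781 and 0.964 in controls, 1.36 and 1.196 in siblings and 9.81 and 11.5 in mutants.

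Neural progenitor genes were lower in siblings by a small amount. Of 60 tested members, 42 lay below 0 with a median log2 of -0.15, made of -0.21 in replicate 1 and -0.15 in replicate 2. At p under 0.05, 13 were lower and 1 higher, compared with 5.12% and 3.53% of all genes, and DESeq2 called 3 lower, compared with 0.68%: her9, her6 and sox9a. her9, a transcriptional repressor of the Hairy family that keeps progenitors undifferentiated, stood at 52.0 and 18.1 RPKM in controls, 30.6 and 10.3 in siblings and 37.6 and 13.6 in mutants (log2 -0.84, SE 0.113, DESeq2 adjusted p = 3.07e-05). Its difference was -0.86 in replicate 1 and -0.82 in replicate 2. her6, a related repressor and Notch target, stood at 53.5 and 21.1 against 27.09 and 13.4. sox9a, a factor for cartilage and glia, stood at 21.7 and 7.46 against 14.8 and 4.64. her8a, hey1, ascl1a, olig2 and sox3, further transcription factors of Notch signalling and neural precursors, were also lower at p under 0.05. gfap, the filament of radial glia, was the higher member at 33.5 and 21.7 in controls and 51.5 and 25.8 in siblings.

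Neuronal genes had a like shift, with 44 of 55 below 0 and a median of -0.23, and 6 (10.9%) were lower at p under 0.05, compared with 5.12% of all genes, with 0 DESeq2 calls. cntn2, an adhesion protein of growing axons, stood at 5.14 and 2.04 RPKM in controls and 2.72 and 1.43 in siblings. neurod4, a proneural factor, stood at 30.7 and 18.3 against 24.5 and 10.3, and elavl3, the pan-neuronal RNA-binding protein HuC, at 123 and 28.5 against 108 and 20.2. The shift was not particular to neural lists. Endothelium and vessels had 31 of 38 below 0 (median -0.14), and liver, pancreas and gut 20 of 27 (median -0.27). Epidermis and keratins did not share it, with 29 of 50 above 0 (median 0.02). Without control replicate 2 the medians of progenitors and neurons were -0.24 and -0.16, with 48 of 60 and 45 of 55 members below 0. At p under 0.05 that fit had 19 lower and 1 higher progenitor gene and 6 lower neuronal genes, against 8.19% and 9.37% of all genes. Without control replicate 1 the counts were 17 lower and 9 higher for progenitors and 11 lower and 3 higher for neurons, against 12.8% and 12%.

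Skeletal muscle genes pointed the other way. Of 76 tested members, 64 lay above 0 with a median log2 of 0.26, made of 0.11 in replicate 1 and 0.36 in replicate 2. Members ran from -1.45 to 1.13, so the largest difference of the list was a decrease. At p under 0.05, 18 were higher and 2 lower, compared with 3.53% and 5.12% of all genes, and DESeq2 called 2 higher, compared with 0.345%. These were eno3, the muscle enolase of glycolysis, at 45.2 and 43.5 RPKM in controls and 120 and 69.2 in siblings, and pvalb3, a calcium-buffering parvalbumin, at 8.21 and 7.54 against 19.6 and 11.7. In both genes both siblings lay above both controls. mylz3, a fast myosin light chain, was at 722 and 115 against 1172 and 161, and myom1a, of the sarcomere's M band, at 11.7 and 1.43 against 16.1 and 2.43. The list's share of all listed reads was 4.68% and 2.47% in controls, 5.28% and 3.19% in siblings and 4.96% and 2.86% in mutants. Without control replicate 2 the median was 0.11, with 46 of 76 above 0, so the size of the shift rested partly on that library. The counts at p under 0.05 were then 20 higher and 6 lower, against 9.37% and 8.19% of all genes, and 32 higher and 2 lower without control replicate 1, against 12% and 12.8%.

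The median of the cardiac genes differed in sign between the replicate numbers, at -0.27 in replicate 1 and 0.10 in replicate 2. Of 40 tested, 25 lay below 0, with 6 lower and 3 higher at p under 0.05, compared with 5.12% and 3.53% of all genes. Leaving out control replicate 2 put 31 below 0 with a median of -0.22, and 13 lower and 2 higher, against 8.19% and 9.37%. Leaving out control replicate 1 put 19 below 0 with a median of 0.07, and 7 lower and 9 higher, against 12.8% and 12%. vmhc, the ventricular myosin, was at 14.6 and 0.422 RPKM in controls and 8.50 and 0.192 in siblings (log2 -0.98, SE 0.213, DESeq2 adjusted p = 0.0171). ankrd1b, a stretch-responsive protein of striated muscle, was at 2.27 and 4.87 against 6.87 and 7.92 (log2 1.097, SE 0.236, DESeq2 adjusted p = 0.0179). Retina and lens genes differed in opposite directions in the replicate numbers, with medians of 0.51 in replicate 1 and -0.65 in replicate 2, and erythroid genes likewise with 0.40 and -0.17. For such lists the pooled medians, 0.12 in both, describe neither pair.

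Among lists of growth and energy genes, ribosome biogenesis and oxidative phosphorylation were slightly higher. Ribosome biogenesis factors lay above 0 in 63 of 71 with a median of 0.23, and 6 were higher and 0 lower at p under 0.05, compared with 3.53% and 5.12% of all genes. Nuclear-encoded subunits of oxidative phosphorylation lay above 0 in 66 of 73 with a median of 0.19, and 7 were higher and 2 lower. dkc1, the pseudouridine synthase of ribosomal RNA, stood at 54.1 and 13.7 RPKM in controls and 68.4 and 25.5 in siblings, and sdhb, the iron-sulfur subunit of complex II, at 21.4 and 17.9 against 34.9 and 22.03. The ribosome biogenesis median was 0.04 without control replicate 2, with 41 of 71 above 0 and 4 higher and 3 lower at p under 0.05, whereas that of oxidative phosphorylation was 0.31 with 32 higher and 0 lower, against 9.37% and 8.19% of all genes. Without control replicate 1, ribosome biogenesis had 46 higher and 1 lower with a median of 0.43, and oxidative phosphorylation 7 higher and 1 lower with a median of 0.12, against 12% and 12.8%. Cytoplasmic ribosomal proteins had a median of 0.03 over 80 genes, and 0 of them had p under 0.05. Hypoxia and glycolysis genes had a median of -0.08, with 21 of 36 below 0. At p under 0.05, 3 of them were lower and 2 higher, compared with 5.12% and 3.53% of all genes.

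**Figure D4:**
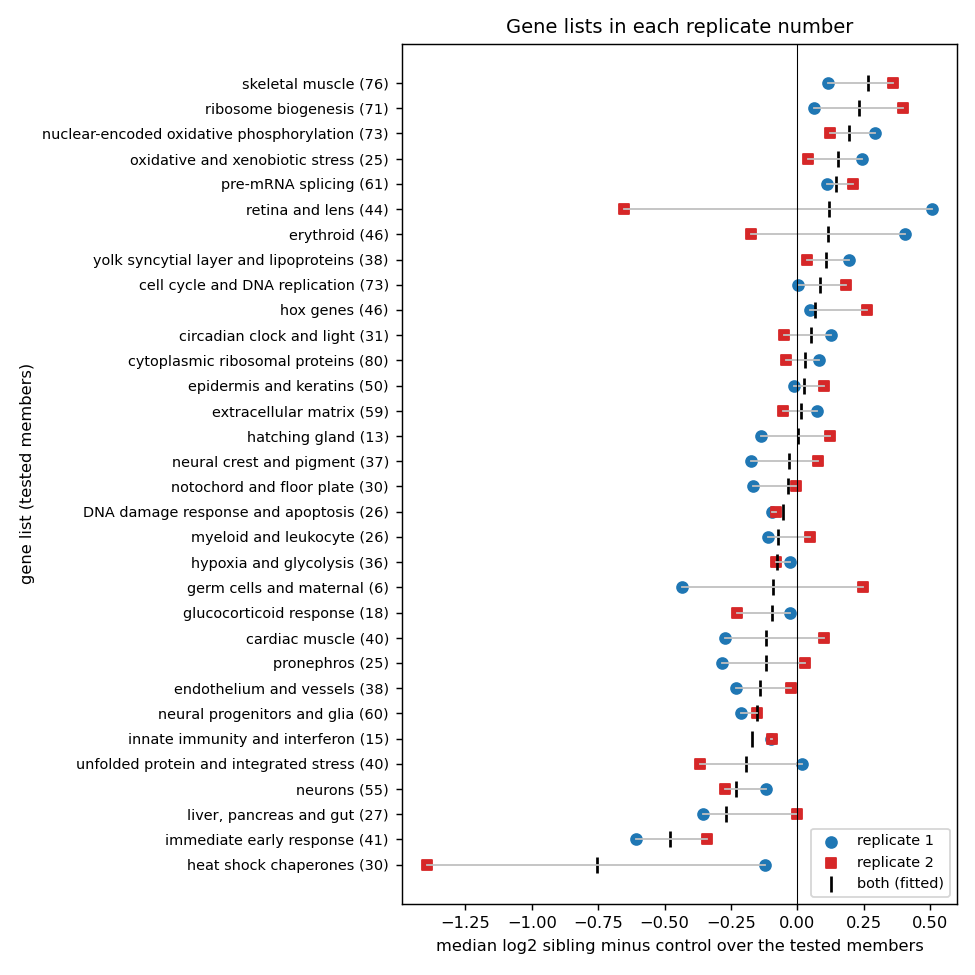
Median log2 sibling minus control over the tested members of each gene list in replicate 1 (blue circles) and replicate 2 (red squares). The group of genes for small nuclear RNA synthesis and U6 maturation is not drawn. A black tick marks the median of the fitted differences, and the number of tested members is in brackets. Immediate early, neuronal and neural progenitor genes lie left of 0 and skeletal muscle right of 0 in both replicate numbers, heat shock chaperones are far to the left in replicate 2 only, and retina and lens genes have opposite signs.

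The genes with the smallest p-values in each direction, without placeholder names, with the same sign in both pairs and an average of at least 5 RPKM in the higher group, came from many processes. On the higher side, histh1l, a linker histone, stood at 22.1 and 25 RPKM in controls, 71.6 and 48.7 in siblings and 50.4 and 40.2 in mutants (log2 1.27, SE 0.195, DESeq2 adjusted p = 2.98e-05). capn8, a calpain protease, stood at 5.64 and 2.99 in controls, 12.4 and 12.4 in siblings and 11.5 and 12.3 in mutants. rnf113a, a zinc finger protein of the spliceosome on chromosome 3, stood at 9.42 and 4.62 against 15.9 and 8.81. mat2aa, which makes S-adenosylmethionine, stood at 43.3 and 20.7 against 65.1 and 35.4, and mutants at 35.2 and 21.5 were near the controls. The other higher genes were med20, atad3b, mrps2, cfh and itm2bb, besides snrpd3, eno3 and lsm7.

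On the lower side, znf710a, a zinc finger gene, stood at 14.8 and 4.89 RPKM in controls, 8.46 and 2.28 in siblings and 4.82 and 1.64 in mutants (log2 -1.002, SE 0.133). tob1b, an antiproliferative adaptor of messenger RNA decay, stood at 28.5 and 24.7 against 17.5 and 11.9, and ptgs2a, the inducible cyclooxygenase of prostaglandin synthesis, at 10.9 and 7.12 against 6.35 and 3.74. sgk1, a kinase induced by glucocorticoids and osmotic stress, was at 14.1 and 6.11 against 9.37 and 3.34. pnp5a, ca15a and sept10 were the others, besides fos, ctgfa, her9, jun and atf3. DESeq2 called each of these 24 genes, and edgeR gave each an adjusted p of 0.565.

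A few transcripts were present in one group or library and nearly without reads in another. ccl-c25v, a chemokine gene (danRer7 chromosome 25, 12952762 to 12953323), had 2 and 0 reads in controls, 150 and 22 in siblings and 88 and 27 in mutants. It and cyp2p6, a cytochrome P450 gene with 66 and 42 reads in controls and 361 and 137 in siblings, were the 2 genes under 0.2 RPKM in both controls and at 0.5 or more in both siblings. In the other direction there were 0 such genes. With a limit of at most 10 reads in 1 library and at least 1000 in each of the other 5, 3 transcripts were found, all nearly lacking in control replicate 1. ctsba, a lysosomal cathepsin, had 0 reads there and 9428 to 12058 in the other 5 whole-embryo libraries. mcm3, of the replication helicase, had 3 reads against 2272 to 4962, and rrm2, of ribonucleotide reductase, 7 reads against 1606 to 21665. Their differences in replicate 1 therefore reflect 1 library, and in replicate 2 ctsba stood at 69.5 RPKM in the control and 69.9 in the sibling.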

How the data were processed

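Polyadenylated RNA of whole embryos was sequenced from strand-specific (dUTP) libraries, per the labels. Reads were aligned with TopHat2 2.0.8 to danRer7, per the submitters' processing notes. No source used here names the counting tool or its strand setting. The deposited counts are raw reads for 15865 RefSeq records per library, per the file headers. Beside them stands the authors' RPKM, relative to a read total of theirs that exceeds the listed reads. Replicate 1 and 2 files have different headers. The 4 fraction libraries were not used.

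For each of 14563 symbols the record with most reads was kept (818 symbols have several records), and genes whose RPKM averaged at least 1 in the 6 whole-embryo libraries were tested. edgeR 4.0.16 (R 4.3.3; TMM scaling, glmQLFit, glmQLFTest) was fitted to the counts with group and replicate number, leaving 2 residual degrees of freedom, with Benjamini-Hochberg adjustment over all 10147 genes. Differences within a replicate number are of edgeR's log2 CPM with a prior count of 2. Same-numbered libraries deviated together from their group means (correlations 0.757 for control and sibling, 0.713 for control and mutant, 0.866 for sibling and mutant), so the numbers were taken to pair the samples. Alternatives were DESeq2 1.42.0, limma 3.58.1, other scalings and filters, all records, no replicate term and leaving out each library. The model was also run on simulated counts that had the trended spread and no outlying library. Named genes are eftud2, the 12 smallest p-values per direction with an average of at least 5 RPKM in the higher group and the same sign in both pairs, and up to 4 members per list; other genes were chosen after their values were seen. The members and lists were chosen with earlier results of these data known; 1 gene was left out of the DNA damage list and is not reported here. No genome of the build was used, so no sequences are shown; current names come from a RefSeq table, which matched 13872 symbols by accession.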

Additional observations from a re-analysis of the deposited data

How the results depend on the processing

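With 2 libraries a group the number of genes past the threshold depended on the model. edgeR and limma called 0 with the replicate block under other scalings, pseudocounts, filters and with all records, and edgeR called 0 with no replicate block, where simulated 4-fold changes were recovered in 0% of cases. DESeq2 called 98 with the block and 12 without it, the latter chosen after seeing the data. Leaving out 1 library gave 0 to 403 calls: 403 without control replicate 1 (260 lower and 143 higher), 120 without control replicate 2 and 0 without either sibling library. The lone library left in a group is then assumed to vary like the others.

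The median of the immediate early genes was -0.24 with a pseudocount of 5 on RPKM. The median of neural progenitors was -0.11 with the authors' totals, and -0.10, -0.093 and -0.074 by limma with pseudocounts of 1, 0.1 and 5. Genes within 5 Mb of eftud2 had a median of 0.0415 with the authors' totals and 0.041 with a pseudocount of 0.1. With each library left out in turn, the splicing median ran from 0.067 to 0.25 and that of neural progenitors from -0.24 to -0.14. The cause of these shifts was not tested.

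Of the genes named in the text, 7 turned sign in some fit that left out 1 library. The log2 differences ran from -7.60 to 0.36 for hsp90aa1.2, -0.74 to 0.21 for hspa8, -0.68 to 0.046 for ccng1, -5.71 to 0.13 for hspbp1 and -2.72 to 0.20 for dnajb9b. In each of these 5 the highest value was the one without control replicate 2. For hspa8, 0.10 was found without sibling replicate 2. ctsba ran from -0.12, without control replicate 1, to 15.86, without control replicate 2. ahsa1, at -0.20 in the fit of all 6 libraries, ran from -1.94, without control replicate 1, to 3.52, without control replicate 2, and was 1.33 without sibling replicate 2. It was also above 0 with only the 4 libraries compared (0.694) and by limma with pseudocounts of 1, 0.1 and 5 (0.2814, 0.723 and 0.0078).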

Other observations

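Clock and light-responsive genes lay on both sides of 0. The list shares at least per2 with the immediate early genes above, so the lists are not separate observations there. Of 31 tested members, 7 were higher and 3 lower at an unadjusted p under 0.05 by edgeR, compared with 3.53% and 5.12% of all genes. The median log2 difference was 0.05, made of 0.13 in replicate 1 and -0.05 in replicate 2, with 12 members higher and 9 lower in both pairs. The balance moved with the control library: there were 6 higher and 8 lower without control replicate 1 (median -0.07, with 12% and 12.8% of all genes), and 10 higher and 2 lower without control replicate 2 (median 0.14, with 9.37% and 8.19% of all genes). lonrf1l was at 3.76 and 2.46 RPKM in controls and 9.04 and 4.396 in siblings, replicates 1 and 2 in that order. cry1a, a light-induced clock repressor, was at 2.11 and 1.56 against 6.04 and 2.31, and cry-dash, a photolyase relative, at 2.85 and 0.797 against 4.27 and 1.73. The lower ones include bhlhe41 at 2.27 and 1.61 against 1.51 and 0.838, and clock at 2.89 and 0.634 against 2.14 and 0.301. The labels give no time of day of collection.

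Some genes of detoxification, metabolism and patterning also differed. cyp1a, the target of the aryl hydrocarbon receptor, was at 3.67 and 3.01 RPKM in controls, 7.25 and 12.9 in siblings and 7.59 and 14.2 in mutants (log2 1.45, SE 0.321, DESeq2 adjusted p = 0.00199). Of 46 hox genes, 8 were higher and 0 lower at p under 0.05, among them hoxd9a at 8.26 and 2.199 against 10.8 and 5.24, compared with 3.53% and 5.12% of all genes. The hox counts without control replicate 2 were 4 higher and 4 lower, near the 9.37% and 8.19% of all genes in that fit. Of 30 notochord and floor plate genes, 7 were lower and 0 higher, compared with 5.12% and 3.53% of all genes, with shhb, a Hedgehog ligand, at 2.92 and 1.93 against 1.82 and 1.18. The 7 include ctgfa, the lowest of this list and its only DESeq2 call, which is also counted among the immediate early genes above. Leaving out control replicate 2 gave 10 lower and 2 higher, against 8.19% and 9.37%. Leaving out control replicate 1 gave 5 and 1, against 12.8% and 12%, and the median turned from -0.04 to 0.02. slc2a1a, a glucose transporter, was at 9.01 and 0.768 against 4.71 and 0.446.

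Among DESeq2 calls outside these lists, chosen after their values were seen, zgc:85866 (current name ccn1), a relative of ctgfa, stood at 9.93 and 7.69 RPKM in controls, 3.86 and 2.54 in siblings and 5.99 and 2.89 in mutants. amotl2b, an angiomotin of the Hippo pathway, stood at 8.18 and 4.84 against 5.23 and 2.54. The sterol synthesis genes sqlea and hmgcs1 differed in opposite directions, at 2.95 and 2.03 against 1.54 and 1.14 and at 3.78 and 2.51 against 7.37 and 3.81. elovl7b, of fatty acid elongation, was at 22.6 and 48.6 against 10.19 and 8.40. Innate immunity genes gave 0 members of 15 at p under 0.05 by edgeR and 0 by DESeq2.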
